A study of Mus musculus with 2 samples.

Results

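The mouse genome encodes 5 NF-kB and Rel proteins. Their genes, Nfkb1, Nfkb2, Rel, Rela and Relb, were chosen by symbol and not by value, though earlier results of these data were known. All 5 were found once each among the 55536 annotated genes of the gene tables, 22028 of which are protein-coding, and they have 36 annotated transcripts between them. The cells were primary macrophages grown from the bone marrow of C57BL/6J mice and given lipid A, the lipopolysaccharide part sensed by Toll-like receptor 4, at 100 ng/ml for 75 min. RNA of the cytosolic fraction (1 µg per library) was freed of ribosomal RNA and sequenced as total RNA. The only group held 2 libraries, biological replicates 1 and 2 by their labels. Both carry the same donor identifier, and the labels do not say that separate animals or cultures were used, so every SD here (n = 2) may be partly technical. Sex and age were not collected. Untreated cells and other times were not analysed here, so the values give levels and not responses, and no p-value was computed.

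NF-kB proteins bind DNA as dimers through the Rel homology region that all of them share, and in a resting macrophage most are held in the cytoplasm by I-kappa-B proteins. Rel (c-Rel), Rela (p65) and Relb carry activation domains, while Nfkb1 and Nfkb2 encode precursors whose C-terminal ankyrin repeats act like an I-kappa-B and whose processed N-terminal parts, p50 and p52, lack an activation domain. Toll-like receptor 4 signals through the IKK kinases to release dimers such as Rela with p50, and the slower non-canonical pathway, through the kinase NIK, processes the Nfkb2 precursor to free Relb with p52.

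The coding stretch below shows how alike the genes are where the proteins contact DNA. It is the 60 bases of each gene's most abundant transcript (GENCODE M21, mm10) that start at the conserved DNA-recognition motif of the Rel homology region, found once in each translated coding sequence, written 5′ to 3′ on the gene's strand. Capitals mark the 27 bases that are identical in all 5 genes.
Rel: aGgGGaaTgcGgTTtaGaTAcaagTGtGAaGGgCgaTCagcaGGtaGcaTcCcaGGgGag
Rela: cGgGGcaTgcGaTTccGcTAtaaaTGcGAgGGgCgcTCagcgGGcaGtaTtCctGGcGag
Relb: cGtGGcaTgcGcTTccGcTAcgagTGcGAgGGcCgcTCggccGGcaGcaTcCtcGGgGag
Nfkb1: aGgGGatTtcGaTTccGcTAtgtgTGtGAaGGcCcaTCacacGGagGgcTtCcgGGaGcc
Nfkb2: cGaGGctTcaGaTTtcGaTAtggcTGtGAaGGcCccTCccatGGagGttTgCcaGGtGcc
The stretch spans codons 19 to 38 of 588 in Rel, 30 to 49 of 549 in Rela, 114 to 133 of 558 in Relb, 51 to 70 of 971 in Nfkb1 and 49 to 68 of 899 in Nfkb2. It lies at chr11:23761052-23761111 (minus strand), chr19:5638604-5638663 (plus), chr7:19619553-19619612 (minus), chr3:135655539-135655598 (minus) and chr19:46306771-46306830 (plus), in the same order of genes. Rela and Relb shared 47 of the 60 bases (78.3%), and Rel shared 43 (71.7%) with each of them. Nfkb1 and Nfkb2 also shared 43 with each other, while pairs across these 2 sets shared 33 to 37 (55.0% to 61.7%). Over whole leading transcripts the longest identical run between any pair was 12 to 17 bases. The authors' posterior SD of the gene count, which measures how uncertainly fragments were divided among genes, was 0 for Rel, Rela, Relb and Nfkb1 in both libraries. For Nfkb2 it was 6.70 and 7.31 counts out of 11744 and 11037.

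All 5 genes were well above detection, at means of 19.5 to 42.2 TPM (an abundance corrected for transcript length and library depth). A mean of at least 1 TPM was reached by 39.3% of all protein-coding genes, so the count of 5 by itself says little. Their levels lay between percentiles 91.8 and 96.8 of the nuclear-encoded protein-coding genes in either library. Rel stood first by mean level with Nfkb1 and Nfkb2 beside it, Rela was somewhat lower, and Relb was lowest at about 46.2% of Rel.

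Rel, the lymphoid and myeloid activating subunit, had 47.0 TPM in replicate 1 and 37.5 TPM in replicate 2 (mean 42.2 ± 6.70 SD). Its gene lies at chr11:23736847-23770970 on the minus strand. Rela, the main activating subunit of the canonical pathway, had 31.6 and 32.1 TPM (31.8 ± 0.368) and lies at chr19:5637483-5648130. On this TPM scale Rela had the smallest SD of the 5 genes and Rel the largest, and the values of Rel and Rela did not overlap. In the second quantification, with TPM rescaled to nuclear-encoded protein-coding genes, the SD of Nfkb1 (31.5) exceeded that of Rel (29.9). Relb, the activating subunit of the non-canonical pathway, had 17.7 and 21.3 TPM (19.5 ± 2.50) and lies at chr7:19606217-19629438 on the minus strand. It was below every other member in both libraries.

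Nfkb1, which encodes p105 and its product p50, had 34.6 and 43.0 TPM (38.8 ± 5.96) and spans chr3:135584655-135691547 on the minus strand. Nfkb2, which encodes p100 and its product p52, had 35.4 and 39.7 TPM (37.5 ± 3.05) and lies at chr19:46304320-46312385. Their ranges overlapped each other and that of Rel, so the first 3 places are not separated. In replicate 1 Rel led and Nfkb2 was just above Nfkb1, whereas in replicate 2 Nfkb1 led and Rel was below Nfkb2 as well. Rela lay below all 3 without overlap, though by only 2.54 TPM between the nearest library values, that of Nfkb1 in replicate 1 and that of Rela in replicate 2. The lead of Nfkb1 over Rela depended on which transcripts were counted. In protein-coding transcripts alone Nfkb1 had 29.1 and 30.6 TPM, below Nfkb2 with 34.6 and 38.8 TPM and close to Rela with 27.7 and 27.8 TPM. Of that Nfkb1 level, 7.44 and 8.42 TPM belonged to Nfkb1-203, a partial model without the Rel homology stretch. The forms with all 971 codons had 15.1 and 18.2 TPM (Nfkb1-206) and 6.50 and 4.01 TPM (Nfkb1-201).

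**Figure D1:**
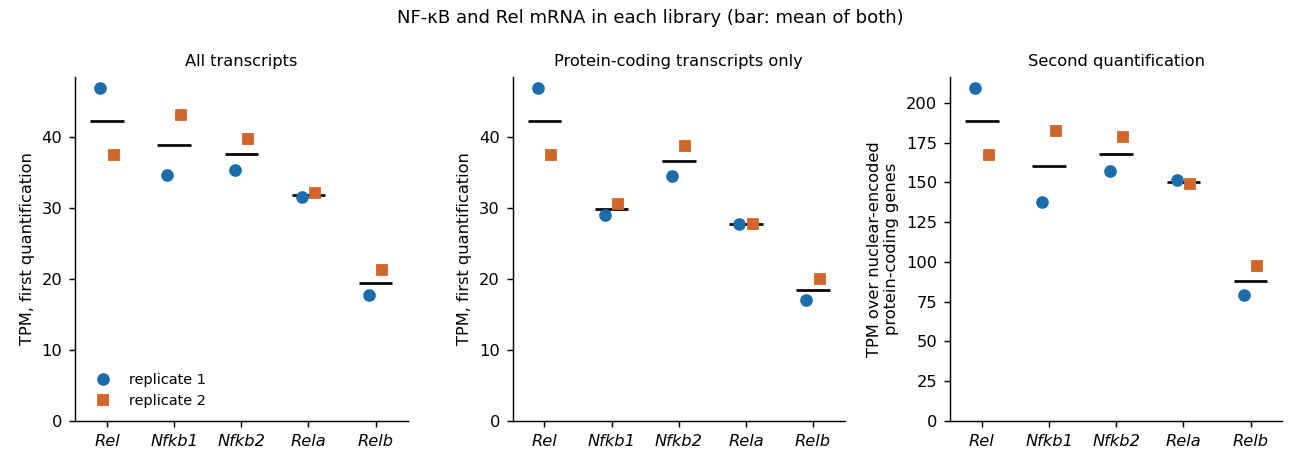
TPM of the 5 NF-kB and Rel genes by library, as circles (replicate 1) and squares (replicate 2) with a bar at the mean: over all transcripts, over protein-coding transcripts, and in the second quantification with TPM rescaled to nuclear-encoded protein-coding genes. Relb is lowest in each panel, and Nfkb1 drops from 38.8 to 29.8 TPM between the first panel and the middle one.

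The submitters deposited a second quantification, derived directly from the read files per the readme files. To set it beside the first, TPM was rescaled in both so that nuclear-encoded protein-coding genes have the same sum. On that scale the first quantification gave means of 195 for Rel, 179 for Nfkb1, 173 for Nfkb2, 146 for Rela and 89.7 for Relb. The second gave 189, 160, 168, 150 and 88.1 in the same order of genes. Both placed Rel first by mean and Relb last without overlap. In the second, the ranges of neighbours overlapped from Rel down to Rela, so Rela was not separated from Nfkb1 there.

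Over all transcripts, the makeup of the family shifted between libraries mostly through Rel and Nfkb1. Of the summed TPM of the 5 genes (166 and 174), Rel held 28.3% in replicate 1 and 21.6% in replicate 2. Nfkb1 held 20.8% and 24.8%, Nfkb2 21.3% and 22.9%, Rela 19.0% and 18.5%, and Relb 10.7% and 12.2%. The Nfkb1 shift depended on which transcripts were counted. In protein-coding transcripts alone Nfkb1 had 29.1 and 30.6 TPM, a smaller gap than for Nfkb2 (34.6 and 38.8) or Relb (17.0 and 20.0). Over all transcripts, the activating genes (Rel, Rela and Relb) together outweighed the precursor genes (Nfkb1 and Nfkb2) by 1.38 to 1 in replicate 1 and 1.10 to 1 in replicate 2 (1.24 ± 0.196). In the second quantification this ratio was 1.49 and 1.15. By counts, which are not per length, Rel held 52.9% and 44.4%, since its one annotated transcript is 7466 bases long against 2209 to 3007 for the leading transcripts of the others.

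For the ratio between libraries, counts were scaled by TMM, a method that sets most genes at no change. Intervals are 95% Clopper-Pearson intervals and cover counting error only. Rel had 39542 counts in replicate 1 and 26541 in replicate 2, a ratio of 0.768 (log2 -0.38, interval -0.40 to -0.36). That exceeded the absolute log2 ratio of 88.8% of 9686 protein-coding genes (those averaging at least 100 counts), whose median was 0.15. Only 4.57% of those genes had a lower signed value.

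Nfkb1 had 11012 and 11105 counts (log2 0.21, interval 0.17 to 0.25) and Relb 4069 and 4109 counts (log2 0.21). Nfkb2 had 11744 and 11037 counts (log2 0.11) and Rela 8345 and 6934 counts (log2 -0.07, interval -0.12 to -0.03). These 4 values lay within the central spread of all genes, at percentiles 27.1 to 65.8 of the absolute log2 ratio. None of the 5 genes was over 2-fold apart between libraries, as were 0.496% of the 9686 genes. In protein-coding transcripts only, the log2 ratio of Nfkb1 was -0.04 (interval -0.08 to 0.0023), against 0.21 over all its transcripts, while that of Relb was 0.18. With spike-in totals for scaling the log2 ratio of Rel was -0.12 and the other 4 were positive, at 0.18 for Rela and 0.36 to 0.46 for the rest.

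Levels of cell markers also differed between the libraries. All 8 macrophage markers were above 1 TPM, with a summed level of 5524 TPM in replicate 1 and 5852 TPM in replicate 2. Most of that was the lysozyme gene Lyz2, with 4227 and 4111 TPM. Of the 8 markers 7 had a positive log2 ratio, 0.25 to 0.62, and Lyz2 had -0.09. None of the 4 B cell, 4 T cell or 4 stromal markers reached 1 TPM, and their sums were at most 0.29 TPM in either library. Of 5 neutrophil markers, S100a8 (9.74 TPM) and Ngp (2.32 TPM) did, with list sums of 11.9 and 12.7 TPM and Ly6g at 0. Of 4 dendritic cell markers, Ccr7 (1.02 TPM) did, with sums of 1.40 and 2.06 TPM. Whether these differences had a part in the values of Rel or Nfkb1 was not tested. In bulk RNA fewer cells of a type and less RNA per cell cannot be told apart.

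Nfkb1 had the most divided output, with 6 of its 10 transcripts at 5% or more of its count in at least 1 quantification. Relb and Nfkb2 had 2 and 3 such transcripts, and Rela and Rel 1 each. The most abundant transcript of every member was protein-coding; over the same 9686 genes the leading transcript was not protein-coding in 2.35%.

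Nfkb1-206 (3007 bases, 971 codons) held 44.5% of the Nfkb1 count in each library, and 41.4% and 41.6% in the second quantification. Nfkb1-201 encodes a protein of the same length with longer untranslated ends, and its part of the count was 26.7% in replicate 1 and 13.8% in replicate 2. In the second quantification it held 42.7% and 26.7%. Its share was lower in replicate 2 in both quantifications, and higher in the second quantification in both libraries.

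Nfkb1-203 and Nfkb1-207 are partial models of the 3′ part of the gene. Each also leaves out a whole exon near the 3′ end of the coding sequence. Nfkb1-203 begins at chr3:135608270 and has 12 exons and 533 codons. Nfkb1-207, annotated for nonsense-mediated decay, begins at chr3:135603796 and has 9 exons and 269 codons. Neither reaches the Rel homology stretch shown above, and Nfkb1-206 has 23 exons and 971 codons. Within its span Nfkb1-203 lacks exon 22 of Nfkb1-206 (chr3:135589327-135589504, minus strand, 178 bases) and held 16.7% and 15.8% of the count. Nfkb1-207 lacks exon 20 (chr3:135590780-135590846, 67 bases) and held 5.41% and 6.16%. The exons are shown because the quantifications disagreed on the transcripts without them.
Nfkb1 exon 20: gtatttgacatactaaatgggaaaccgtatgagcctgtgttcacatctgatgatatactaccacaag
Nfkb1 exon 22: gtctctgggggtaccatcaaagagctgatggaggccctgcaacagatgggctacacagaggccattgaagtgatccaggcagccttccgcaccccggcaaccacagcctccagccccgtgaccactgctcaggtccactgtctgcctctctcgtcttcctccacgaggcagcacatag
Neither length is a multiple of 3, so leaving out either exon shifts the reading frame behind it. The second quantification gave Nfkb1-203 6.15% and 5.93% and Nfkb1-207 nothing in either library, so the use of exons 20 and 22 is not settled by these tables.

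The retained-intron transcripts of Nfkb1 made up 6.08% of its count in replicate 1 and 18.7% in replicate 2, 3.07-fold more (7.15% and 23.5% in the second quantification). Each of the 4 had the higher share in replicate 2 in both quantifications. Nfkb1-204, with 1824 of its 3383 bases in intron 12 of Nfkb1-201 (chr3:135608296-135612413), held 2.66% and 9.05%. Nfkb1-202, with 188 bases in that intron, held 1.74% and 4.62% and, in the second quantification, 2.56% and 8.91%. The single-exon Nfkb1-208, mostly in intron 7, held 1.01% and 2.64%, and Nfkb1-210, mostly in intron 16, held 0.664% and 2.34%. Gm43430, an unclassified locus inside Nfkb1 on the same strand (chr3:135650670-135654566), had 163 and 439 counts (log2 1.62, interval 1.36 to 1.89). So the intronic sequence of Nfkb1 had a higher share in replicate 2 at several separate places, while the TMM-scaled counts of its coding transcripts were about level (9684 and 8228 before scaling).

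The retained-intron shares of the other members did not differ to the same degree. Retained-intron transcripts held 3.16% and 4.79% of the Relb count, 2.67% and 3.25% of the Rela count, and 1.13% in both libraries of the Nfkb2 count. Rel has no annotated transcript of this kind, so its introns were not measured. For Rela and Nfkb2 they hardly were: intron makes up 4.45% of Rela-203, 4.28% of Nfkb2-205 and, at 2 introns, 4.27% and 2.82% of Nfkb2-207. In Relb-206 it makes up 30.5%, in Nfkb1-204 53.9% and in Nfkb1-202 7.46%. The shares of Rela and Nfkb2, and that of Nfkb1-202, therefore say little of their introns. Many other genes moved like Nfkb1. Of 2402 genes with a mean of at least 20 such counts, 46.0% had a share over 2-fold higher in replicate 2. Their median share went from 2.08% to 4.02%, and the fold of Nfkb1 lay at percentile 74.6, that of Relb at 42.1, Rela at 32.2 and Nfkb2 at 18.7. RNAs known to stay in the nucleus were also more abundant in replicate 2: Malat1 had 158 and 799 TPM (log2 2.23) and Neat1 14.8 and 64.6 TPM (log2 2.02). Their part in the Nfkb1 values was not tested.

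**Figure D2:**
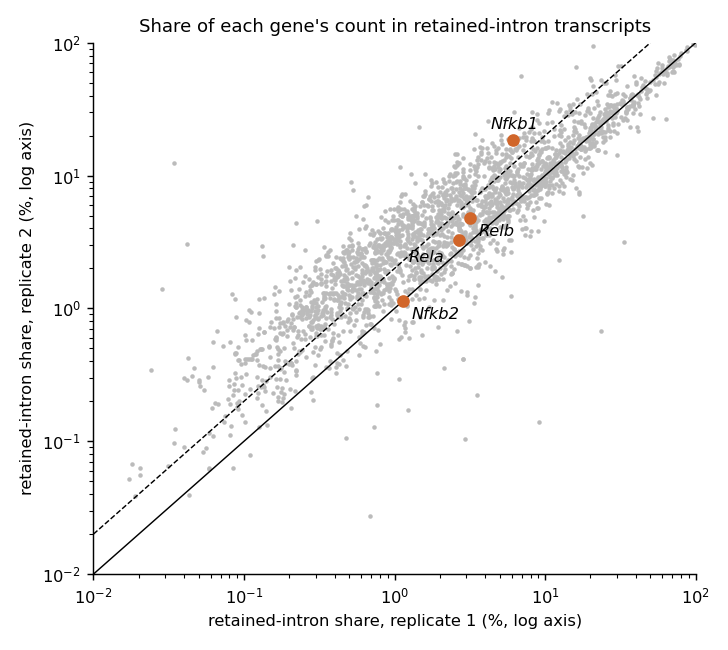
Share of each gene's count in retained-intron transcripts in replicate 1 (x axis) and replicate 2 (y axis), in percent on log axes, for 2390 of the 2402 genes (grey points; the others lie outside the axes), with equality as a solid line and a 2-fold higher share as a dashed line. Nfkb1, at 6.08% and 18.7%, lies above the dashed line, Relb and Rela lie between the lines, and Nfkb2 lies on equality.

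Nfkb2 was read from alternative first exons that lead into the same 899 codons. Nfkb2-201 starts at chr19:46304744, and Nfkb2-202 starts 952 bases further on, at chr19:46305696. Nfkb2-201 held 55.3% and 58.1% of the count and Nfkb2-202 30.1% and 28.0%. In the second quantification they were about equal, with 43.0% and 41.9% for Nfkb2-201 and 43.0% and 43.7% for Nfkb2-202. The quantifications lay further apart than the libraries, so both starts had counts but their proportion is not settled. Nfkb2-206, which begins upstream of both and has a shorter coding sequence of 878 codons, held 11.4% and 9.35% (10.6% and 8.91% in the second). Nfkb2 overlaps genes on the opposite strand, AC114539.1 at its start by 1292 bases and Psd at its end by 299 bases. These had 821 and 790 counts and 558 and 574 counts, and whether counting used strand is not known from the sources.

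Both start regions of Nfkb2 hold a kappa-B-type sequence, and the windows are shown because Rel holds one too. RefSeq promoter entries (GRCm38.p6, 250 bases before to 50 after a start) matched 3 of the 5 genes, Rel, Rela and Nfkb2, the last with 3 starts. The letters searched, on both strands, were GGGNNTTTCC, a narrow form of GGGNNNNNCC and so always contained in it. Windows of 30 bases follow, written on the gene's strand with the 10 matching bases in capitals.
Rel, chr11:23771051-23771060, minus strand: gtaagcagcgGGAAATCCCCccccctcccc
Nfkb2 upstream start, chr19:46304726-46304735, plus strand: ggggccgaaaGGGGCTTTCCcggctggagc
Nfkb2 downstream start, chr19:46305705-46305714, plus strand: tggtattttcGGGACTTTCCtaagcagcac
The coordinates are those of the capitals. The match begins at position -91 from the RefSeq start of Rel, on the opposite strand, at -11 from the upstream start of Nfkb2 and at 10 from its downstream start. The last match is also at -225 from another RefSeq start of Nfkb2. The Rela window held no GGGNNTTTCC. These letters occurred in 535 of all 32851 promoter windows (1.63%), whereas GGGNNNNNCC occurred in 50.8%, including each window of Rel, Rela and Nfkb2. Sequences that match only GGGNNNNNCC, such as GGGAATTCCC at chr19:46304698-46304707 in the upstream Nfkb2 window, are not marked above. Nfkb1 and Relb had no matching RefSeq promoter entry, so their promoters were not searched. A match describes the sequence only, since binding was not measured.

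Relb output was mostly 1 transcript, and the next differs from it by a 9-base exon in the coding sequence. Relb-202 (558 codons) includes that exon (chr7:19622926-19622934, minus strand) and held 85.3% and 83.2% of the count. Relb-201 (555 codons) leaves it out and held 6.97% and 8.20%. The exon is in capitals.
Relb-202: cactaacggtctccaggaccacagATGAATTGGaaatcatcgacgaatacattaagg
Relb-201: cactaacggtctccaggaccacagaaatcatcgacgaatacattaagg
In the second quantification Relb-202 held 86.2% and 75.7% and Relb-201 6.87% and 11.4%, so the form with the exon led by a wide margin throughout. Relb-203, wholly contained in the sequence of Relb-202, held 2.94% and 1.83%. For Rela, Rela-201 (549 codons) held 96.3% and 96.2% of the count, and 93.2% and 94.2% in the second quantification. Rel-201, with 588 codons, is the only annotated Rel transcript.

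**Figure D3:**
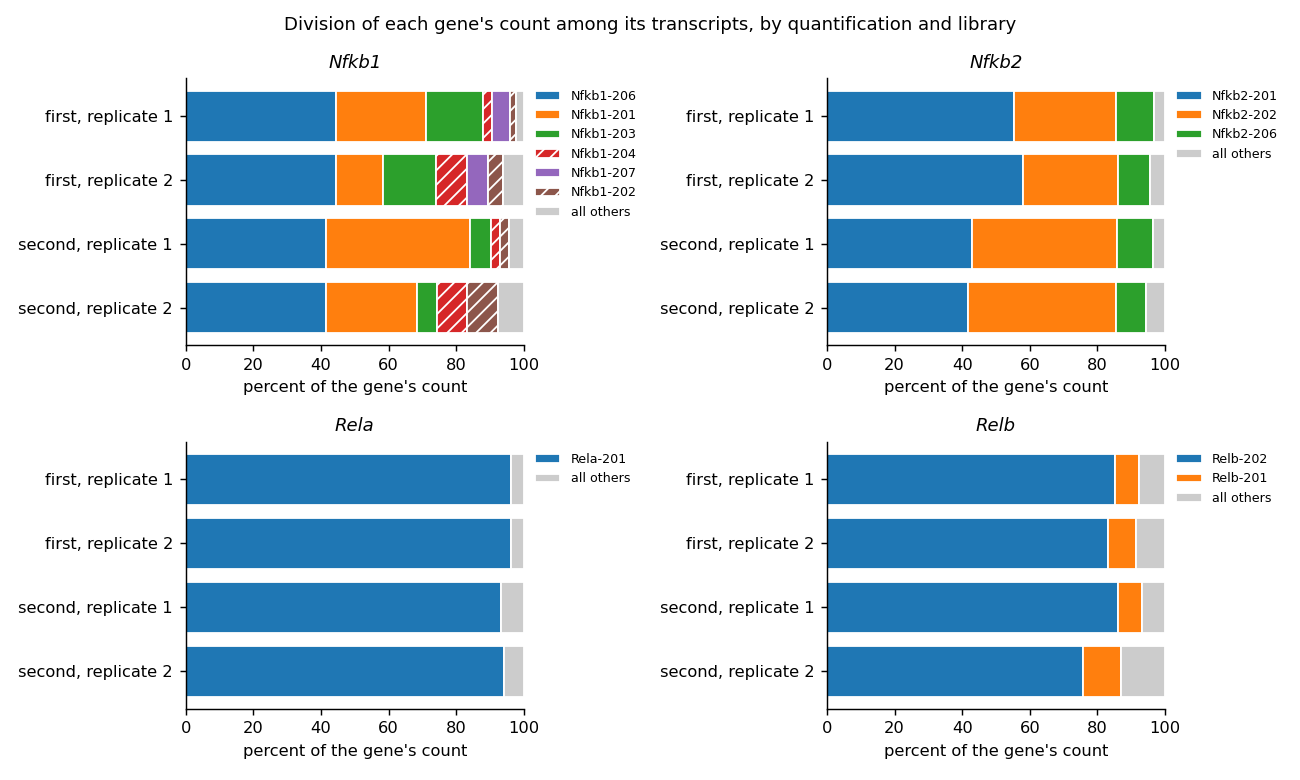
Percent of each gene's count held by its transcripts (x axis) in the first and second quantification of each library (rows), for transcripts with a mean of 5% or more in either quantification; hatching marks retained-intron transcripts and grey all others. Rela and Relb are mostly 1 transcript, the Nfkb2 division changes between quantifications (Nfkb2-201 at 55.3% or 43.0% in replicate 1), and the hatched Nfkb1 transcripts are larger in replicate 2.

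The genes that act on NF-kB were nearly all present: 56 of 59 listed genes reached 1 TPM, against 39.3% of protein-coding genes. The lists are of known pathway genes, so this share describes the lists only. The inhibitors were the most abundant, with all 6 above 1 TPM and a list median of 42.5 TPM. Nfkbia, which encodes the I-kappa-B that holds Rela dimers in the cytoplasm, had 561 ± 14.5 TPM, 13.3 times the mean of Rel. Nfkbiz, a nuclear I-kappa-B protein, had 240.0 ± 25.2 TPM and, like Rel, a negative log2 ratio (-0.27). Nfkbib had 47.6 ± 0.566 TPM, just above the highest library value of the NF-kB genes (47.0 TPM, Rel in replicate 1). Nfkbie had 37.3 ± 2.83 TPM, within their range.

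The kinase genes had a lower list median than the inhibitors. Of 11 genes of the IKK complex and the kinases above it, 10 reached 1 TPM, with a median of 5.42 TPM. The adaptor Tab2 (25.1 ± 0.283 TPM), the IKK-related kinases Ikbke (20.4 ± 5.24) and Tbk1 (16.3 ± 0.134) and the catalytic subunit Ikbkb (13.7 ± 0.502) led the list, and Tab1 had 0.705 TPM. Ikbke had 16.7 and 24.1 TPM in the libraries, the widest gap of these 4. Of 10 non-canonical pathway genes 9 reached 1 TPM. Receptors led, with Tnfrsf1b (TNF receptor 2) at 152 ± 29.7 TPM, Cd40 at 43.0 ± 5.81 and Tnfrsf11a (RANK) at 11.1 ± 2.58, beside the ubiquitin ligase Birc3 at 28.4 ± 0.926. Map3k14, which encodes NIK, had 2.35 and 2.55 TPM. Tnfrsf13c, the BAFF receptor of B cells, had 0 and 5 counts (0.0200 TPM).

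All 16 ubiquitin and turnover genes reached 1 TPM. The deubiquitinase gene Tnfaip3 (A20) had 339 ± 8.84 TPM, and its partner Tnip1 had 48.6 ± 5.06, a mean above that of each NF-kB gene although its 45.1 TPM in replicate 1 lay below Rel. Ube2n (33.3 ± 1.56 TPM) and Ube2v1 (31.1 ± 1.79), whose products work as a pair to build signalling ubiquitin chains, were near the level of Rela. Of 12 coactivators, corepressors and modifiers 11 reached 1 TPM, led by the ribosomal protein gene Rps3 (60.5 ± 10.3), whose product can join Rela complexes, and the corepressor gene Ncor1 (31.9 ± 1.23); the kinase gene Rps6ka5 had 0.805 TPM. All 4 transport genes did too, with the importins Kpna3 (33.7 ± 2.35 TPM), Kpna4 (17.3 ± 0.495) and Kpnb1 (13.7 ± 1.43) and the exportin Xpo1 (10.6 ± 1.12). Over all lists the median log2 ratio of replicate 2 to replicate 1 was -0.03 for the 58 genes averaging at least 100 counts.

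**Figure D4:**
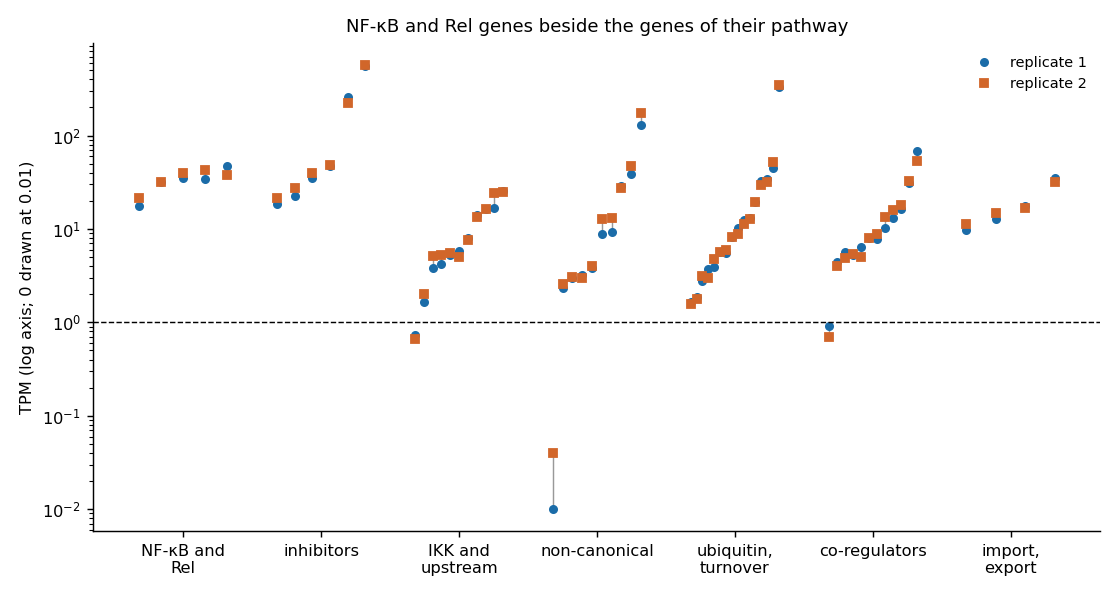
TPM (log axis) of the 5 NF-kB and Rel genes and of 59 genes in 6 lists of their pathway, ordered by mean within each list, with circles for replicate 1, squares for replicate 2 and a dashed line at 1 TPM. The NF-kB and Rel genes lie in a narrow band of 17.7 to 47.0 TPM, Nfkbia has a mean of 561 TPM, and 3 genes lie below the line.

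Protein-coding genes whose values lay nearest to each member were found by distance in log2(TPM + 0.1) over both libraries. They were Sp100 and Ik for Rel, Clec4a3 and Tor1aip1 for Rela, Cct3 and Irs2 for Relb, Surf4 and Fcgr4 for Nfkb1, and Nfkbie and Dnmt3a for Nfkb2. Nfkbie, the I-kappa-B-epsilon gene, had 35.3 and 39.3 TPM, a distance of 0.02 from Nfkb2. With 2 libraries such likeness is a match of levels and says nothing of how the genes vary elsewhere.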

How the data were processed

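Cytosolic RNA of 2 libraries in 1 group was analysed. Gene and transcript tables of a first quantification and a transcript table of a second were deposited per library, on mm10 with annotation M21, per the file headers and readme files. Aligner, quantifiers and versions, and any use of strand, are likewise not given in the sources used here. Expected counts are the authors' estimates and need not be whole; they were rounded to whole numbers for scaling factors and counting intervals. TPM was deposited by the authors and rescaled here only where stated. The posterior SD is another deposited column.

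Libraries held 55596625 and 50157146 gene counts (spike-ins 0.251% and 0.204%, left out). Ratios used edgeR 4.0.16 TMM factors over genes with a mean count of at least 10, and 0.5 added. DESeq2 1.42.0 size factors, other scalings, the second quantification, other TPM thresholds and leaving out a library were alternatives, and protein-coding transcripts only for the ratios was added after seeing the data. Calculations were tested on simulated data. R 4.3.3 and Python 3.11.15 were used.

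Members and lists were chosen with earlier results of these data known. Named are all members, their transcripts at 5% or more, up to 4 most abundant genes and those under 1 TPM per list, the 2 nearest genes per member, Malat1 and Neat1. Others (Nfkb1-208, Nfkb1-210, Relb-203, Map3k14, overlapping genes, markers) were named after their values were seen. Some genes that this rule names are not reported here.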

Additional observations from a re-analysis of the deposited data

How the results depend on the processing

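All 5 members were detected under each alternative tried. Of 131 alternative values over 28 results, 97 stayed within the limit set for them, 31 moved further and 3 changed sign. The limit was the SD between libraries for levels and shares, and the counting interval for ratios. For the numbers of genes detected it was a fixed fold. Leaving out a library cannot move a mean of 2 libraries past their SD. Those alternatives therefore test nothing where the SD was the measure, and they are among the 97. The share of Rel-201 could not move either, as Rel has no other annotated transcript. With 2 libraries an SD can be very small (Rela-201, Nfkb1-206), so a move past it can be slight. At 10 TPM 31 pathway genes were counted, against 56 at 1 TPM in both or either library.

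In protein-coding transcripts only, Nfkb1 was at 29.8 TPM and Rela at 27.8 TPM, the family shares of Nfkb1, Nfkb2 and Rela were 19.2%, 23.7% and 17.9%, and the log2 ratio of Nfkb1 was -0.040. By counts the shares were 16.7% for Nfkb1, 17.1% for Nfkb2, 48.7% for Rel, 11.4% for Rela and 6.16% for Relb, since counts are not per length. The second quantification gave 150 rescaled TPM and a share of 19.9% for Rela, 41.5% of counts for Nfkb1-206, 42.4% for Nfkb2-201, 93.7% for Rela-201, 81.0% for Relb-202 and a log2 ratio of 0.25 for Nfkb1; there the first quantification's TMM factors were used. As percent of TPM, Nfkb1-206 had 43.0% and Rela-201 86.6%.

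Log2 ratios by library totals were 0.16 for Nfkb1, 0.059 for Nfkb2, -0.43 for Rel and -0.12 for Rela. By spike-in totals they were 0.46, 0.36, -0.12 and 0.18, with 0.46 for Relb. By rescaled TPM they were 0.30, 0.15, -0.34 and 0.0061. The direction of Rel was negative in each alternative and that of Rela was not kept; the cause was not tested beyond the scaling itself. No paired analysis was possible because there is 1 group.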
